A study of Mus musculus with 59 samples.

Results

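Genes that write and read methylation of lysine 9 of histone H3 (H3K9) were followed through the first cell divisions of cloned mouse embryos. The set holds 10 genes of the 24421 in the deposited table, chosen by name: the methyltransferases Suv39h1, Suv39h2, Ehmt1, Ehmt2, Setdb1 and Setdb2, and the readers Cbx1, Cbx3, Cbx5 and Mphosph8. All 10 had a row. The embryos were clones made by nuclear transfer (SCNT): a somatic nucleus, per the labels that of a cumulus cell, replaces the oocyte's own chromosomes. All groups carry the strain label BDF1 and no engineered allele, and the labels' protocol describes oocyte donors as superovulated C57BL/6n females of 5 to 7 weeks. The groups were untreated 1-cell embryos (collected 13 to 14 h after activation), early 2-cell embryos without treatment (20 to 21 h), late 2-cell embryos given the histone deacetylase inhibitor trichostatin A (TSA; 33 to 34 h), and untreated late 2-cell embryos (33 to 34 h). The labels list 5 poly(A) RNA libraries in each of these groups, and the table gives the authors' single value per gene and group. The 1-cell column is matched by its collection time alone. No value below therefore has an SD, an error or a p-value, and the order of 2 close levels cannot be set against a spread. The TSA dose and the number of embryos per library are not stated in the labels.

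Methylated H3K9 marks silent chromatin. SUV39H1 and SUV39H2 place the trimethyl mark at pericentric repeats, G9a (Ehmt2) and its partner GLP (Ehmt1) place mono- and dimethyl marks in euchromatin, and SETDB1 is brought to retroelements and imprinted regions by the corepressor KAP1 (Trim28). The heterochromatin proteins HP1β (Cbx1), HP1γ (Cbx3) and HP1α (Cbx5) and MPP8 (Mphosph8), a subunit of the HUSH silencing complex, bind the methylated lysine through a chromodomain. In cloned embryos, H3K9 methylation carried over from the donor nucleus is a known barrier to activation of the genome.

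The values are log2(FPKM + 1), where FPKM is the fragment count corrected for library size and for the length of the transcript. They are printed here as FPKM, a level that can be compared between genes, and a difference between groups is always a difference of log2(FPKM + 1), counted as at least 2-fold when it reaches 1. FPKM are relative to the rest of the column, so a lower value can also come from more of other transcripts. Less of a transcript in each cell and fewer cells carrying it also cannot be told apart. Sequencing depth is unknown. The 5 oocyte markers (Zp3, Gdf9, Oosp1, Zar1 and Nlrp5) were all at 1 FPKM or more in each column, with summed levels of 1639, 1420 and 1020 FPKM in 1-cell, early 2-cell and late 2-cell embryos and 707 FPKM with TSA. Oosp1 made up 1311, 1242, 826 and 541 FPKM of these. Between the 2-cell stages 2 of the 5 lay above 0, and Zp3 was at 53.0, 27.9 and 101 FPKM over the untreated stages. The 5 late 2-cell markers (Zscan4c, Zscan4d, Usp17lb, Tdpoz4 and Tcstv3) summed to 27.9, 35.9 and 161 FPKM over the untreated stages and to 342 FPKM with TSA. Usp17lb alone made up 110 FPKM of the untreated late 2-cell sum. Between the 2-cell stages 4 of the 5 were higher in late embryos, while Tcstv3 was at 22.5, 32.9 and 29.6 FPKM over the untreated stages. Without Usp17lb the late 2-cell sums were 66.0 FPKM with TSA and 51.5 FPKM without, and Zscan4c (3.29 against 5.29 FPKM) and Zscan4d (5.81 against 7.02 FPKM) were lower with TSA. Of 10 cumulus markers, 3 or 4 per column reached 1 FPKM, with sums of 34.1, 26.0 and 60.1 FPKM and 75.0 FPKM with TSA. Nr5a2, which early embryos also express, made up 19.5, 13.8, 52.7 and 69.0 FPKM of these sums. Cyp19a1, the aromatase gene, was at 8.31, 6.26 and 0.50 FPKM over the untreated stages and 1.703 FPKM with TSA. Has2 reached 2.82 FPKM in 1-cell embryos and Tnfaip6 lay between 1.59 and 3.10 FPKM, while Amh, Foxl2 and Inhba were at or below 0.30 FPKM in all 4 columns. The part of these in the members' values was not tested. Listed at 0 were Amh in 1-cell, Amh and Foxl2 in early 2-cell, and Ptx3 and Inhba in late 2-cell embryos, and Fshr in late 2-cell embryos with TSA.

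Across the untreated stages, 4 members were lower at the end, 2 were higher, and the other 4 did not reach 2-fold. Mphosph8, Cbx1, Setdb1 and Suv39h2 were at least 2-fold lower in late 2-cell than in 1-cell embryos, with differences of -2.93, -2.01, -2.07 and -1.49. Ehmt2 and Cbx3 were at least 2-fold higher, with differences of 3.45 and 1.73. That of Ehmt2, which was near 0 in 1-cell embryos, depends on the pseudocount, and was 6.37 with 0.1 and 1.60 with 5. Suv39h1 (0.89) and Setdb2 (0.86) lay above 0 and Cbx5 (-0.33) below it without reaching 2-fold, and Ehmt1 (0.05) was nearly level between these ends. Over 12880 genes past the filter of 1 FPKM in either column, 45.7% had a late 2-cell value 2-fold or more above the 1-cell value and 13.8% one as far below it, against 2 and 4 of the 10 members. The median difference was -0.14 over the members and 0.83 over genes past the filter. After median-ratio scaling or quantile normalization, which bring the median of genes past the filter to 0.01 and -0.16, the 4 lower members and Ehmt2 stayed past 2-fold and Cbx3 was at 0.86 and 1.003. Ehmt1 was then at -0.79 and -0.83 and Cbx5 at -1.18 and -1.13, and Suv39h1 and Setdb2 were above 0 after the first (0.12 and 0.045) and below it after the second (-0.16 and -0.13).

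**Figure D1:**
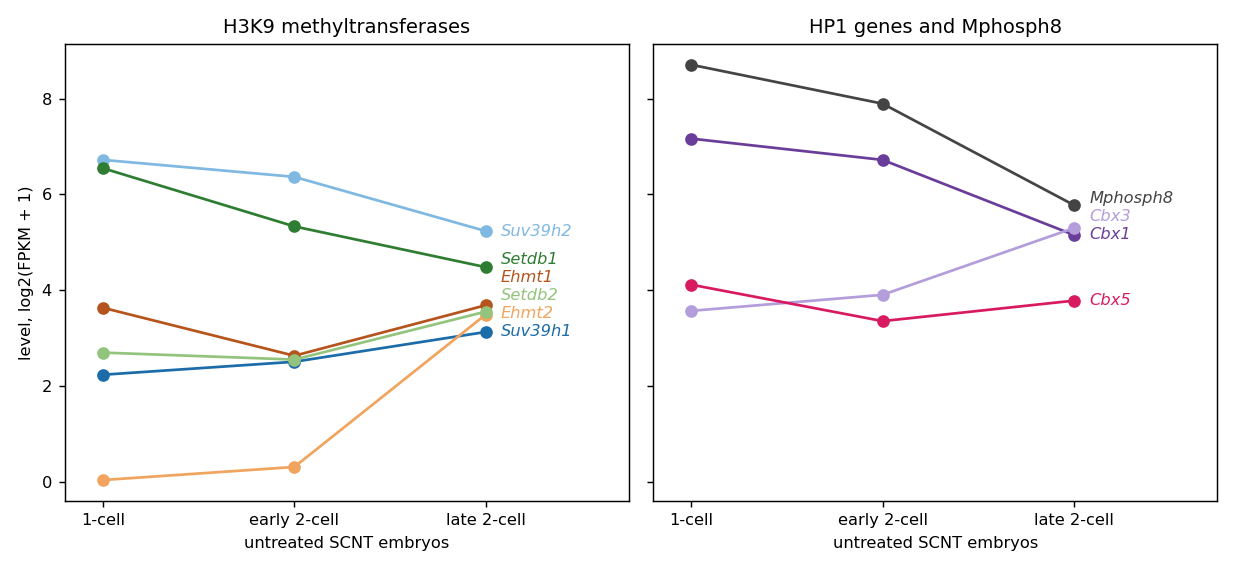
Levels of the 10 genes in untreated SCNT embryos, as log2(FPKM + 1) on the y axis, with 1 point for the authors' value of each stage on the x axis; methyltransferases are on the left and readers on the right. Ehmt2 starts near 0 and ends among the other methyltransferases, while Mphosph8 starts as the most abundant member at 417 FPKM and ends at 53.8 FPKM.

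Suv39h2 was the more abundant of the SUV39H pair throughout. Its level was 105, 81.5 and 36.7 FPKM in 1-cell, early 2-cell and late 2-cell embryos, lower at each step. Suv39h1, on the X chromosome, was at 3.71, 4.68 and 7.74 FPKM at the same stages, as deposited higher at each step. The share of Suv39h1 in the summed FPKM of the pair was thus 3.42%, 5.43% and 17.4%. Such a share is a ratio within a column and does not depend on a scaling factor per column. The difference of Suv39h1 between the 2-cell stages does. It was 0.62 as deposited, -0.24 after median-ratio scaling and -0.50 after quantile normalization. Suv39h2 (chromosome 2, 3455815 to 3474986, minus strand, GRCm38.p6) overlaps Dclre1c, a DNA repair nuclease gene on the other strand, over 18397 bp. Dclre1c was at 2.13, 1.09 and 10.6 FPKM, and whether reads were assigned by strand is not given in the sources used here.

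The GLP and G9a transcripts, whose proteins act as a complex, were far apart at first and close at the late 2-cell stage. Ehmt2 was near 0 in 1-cell embryos (0.025 FPKM) and early 2-cell embryos (0.24 FPKM), under the filter of 1 FPKM in both, and stood at 10.2 FPKM in late 2-cell embryos. Ehmt1 was at 11.4 FPKM in 1-cell, 5.19 FPKM in early 2-cell and 11.9 FPKM in late 2-cell embryos, as deposited lowest in the middle. Its difference between the 2-cell stages was 1.05 as deposited, 0.16 after median-ratio scaling and -0.05 after quantile normalization. The share of Ehmt2 in the pair was 0.22%, 4.38% and 46.3%. Its range over the 4 columns was 3.45 on the log2(FPKM + 1) scale, as was that of Mphosph8; with a pseudocount of 5 or after median-ratio scaling, the late 2-cell against 1-cell difference was larger in size for Mphosph8. Among 8576 named genes with at least 5 FPKM in a column, those with the most similar centred profile over the 4 columns were Slc25a39, a mitochondrial carrier gene (Euclidean distance 0.088), Cacybp (0.096) and Derl1, of the degradation pathway of the endoplasmic reticulum (0.11). Slc25a39 was at 2.04, 2.71 and 35.0 FPKM over the stages and Cacybp at 7.65, 10.1 and 91.6 FPKM. The likeness depends on the pseudocount of 1, since in FPKM the late 2-cell value of Ehmt2 was 408 times its 1-cell value.

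The SETDB pair also drew closer. Setdb1 was at 92.5 FPKM in 1-cell, 39.3 FPKM in early 2-cell and 21.3 FPKM in late 2-cell embryos. Setdb2, a related methyltransferase gene, was at 5.48, 4.86 and 10.7 FPKM. Setdb1 made up 94.4%, 89.0% and 66.5% of the pair. Setdb2 (chromosome 14, 59402009 to 59440880) lies wholly within the RefSeq gene Gm45935 on the same strand, so reads cannot be assigned to it alone with certainty. Setdb1 (chromosome 3, 95323525 to 95357202) overlaps Cers2 by 75 bp. Setdb2 starts 54 bp from Cab39l on the other strand, which was at 31.6, 14.6 and 19.0 FPKM over the stages.

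HP1 composition differed more between the early and late 2-cell stages than across the first cleavage. Cbx1 (HP1β) was at 143 FPKM in 1-cell, 105 FPKM in early 2-cell and 34.6 FPKM in late 2-cell embryos. Cbx3 (HP1γ) was at 10.9, 14.0 and 38.4 FPKM, and Cbx5 (HP1α) at 16.3, 9.23 and 12.8 FPKM. Cbx1 made up 84.0%, 81.8% and 40.4% of the summed HP1 transcripts and Cbx3 6.40%, 10.9% and 44.8%, so that among the untreated stages Cbx3 was the most abundant HP1 gene only in late 2-cell embryos. The ratio of Cbx1 to Cbx3 was 13.1, 7.48 and 0.90. Cbx1 (chromosome 11, 96788680 to 96808982) contains the transcribed pseudogene Gm11517 (96795332 to 96798156), which was at 0.080, 0.46 and 221 FPKM over the stages; its part in the Cbx1 values was not tested. RefSeq also names 6 pseudogenes after Cbx3, none of which has a row in the table, so reads of Cbx3 and its copies may be mixed. The named genes closest in profile to Cbx1 were Cfap45 (distance 0.025), Senp8 (0.043) and Pinx1 (0.048).

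**Figure D2:**
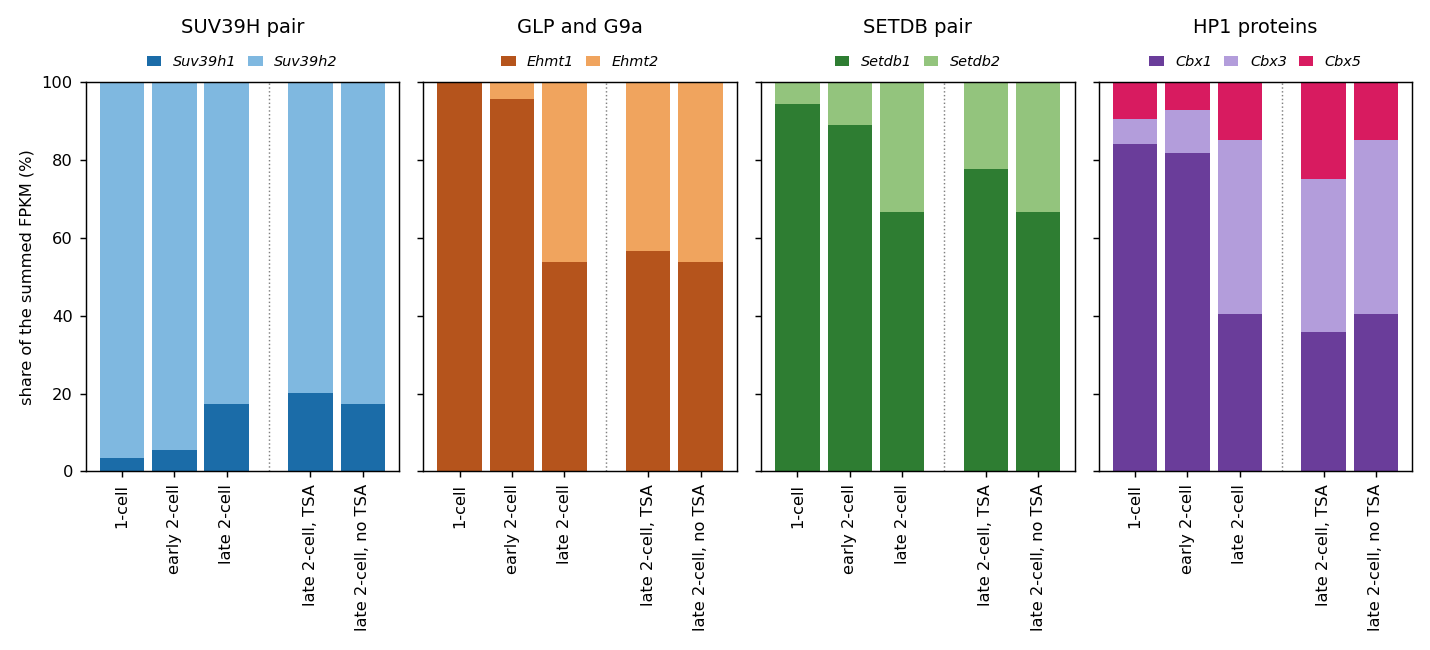
Share of each gene in the summed FPKM of its group, in percent, for the untreated stages left of the dotted line and for late 2-cell embryos with and without TSA right of it; the untreated late 2-cell bar is drawn on both sides. Each bar is the authors' single value per group; Suv39h1, Ehmt2, Setdb2 and Cbx3 hold larger shares in late 2-cell than in 1-cell embryos, and Cbx5 takes 24.8% of the HP1 transcripts with TSA against 14.9% without.

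Mphosph8 was the most abundant member in each of the untreated stages. It was at 417 FPKM in 1-cell, 237 FPKM in early 2-cell and 53.8 FPKM in late 2-cell embryos. Among genes with at least 1 FPKM it lay above 98.0%, 96.4% and 84.0% of the others, so its place in the column was also lower at each step. Its closest named profiles were those of the olfactory receptor gene Olfr214 (distance 0.13), Fbxw15 (0.14) and Jag1, a Notch ligand gene (0.18). Fbxw15 was at 986, 513 and 112 FPKM. Olfr214 was at 12.9, 7.47 and 0.75 FPKM, thus under 1 FPKM in late 2-cell embryos, where its profile depends on the pseudocount. Mphosph8 (chromosome 14, 56668235 to 56697430, plus strand) overlaps the non-coding gene Gm16973 by 1156 bp, which was at 0.12, 0.88 and 7.71 FPKM.

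The 250 bases before the most upstream start listed in the RefSeq promoter table (GRCm38.p6) are shown for Ehmt2 and Mphosph8, the members with the highest and the lowest difference between late 2-cell and 1-cell embryos. Capitals mark matches, on either strand, to a TATA box (TATAAA), the CCAAT box, an Sp1 box (GGGCGG) and an E-box (CACGTG); none of these overlap each other here. The windows are chr17:34898224-34898473 and chr14:56667998-56668247, both on the plus strand. The RefSeq gene intervals begin a few bases inside them, at 34898463 and 56668235.
Ehmt2: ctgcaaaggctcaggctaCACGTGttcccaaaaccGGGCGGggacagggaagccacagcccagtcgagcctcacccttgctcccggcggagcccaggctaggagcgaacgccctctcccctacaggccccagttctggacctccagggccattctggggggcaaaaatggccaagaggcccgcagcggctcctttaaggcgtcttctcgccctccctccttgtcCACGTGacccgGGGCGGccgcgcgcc
Mphosph8: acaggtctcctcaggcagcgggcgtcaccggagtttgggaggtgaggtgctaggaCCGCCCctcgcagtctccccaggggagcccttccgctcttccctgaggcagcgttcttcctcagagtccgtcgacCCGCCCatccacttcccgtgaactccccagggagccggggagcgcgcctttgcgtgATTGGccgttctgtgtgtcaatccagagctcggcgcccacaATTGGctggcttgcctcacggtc
The Ehmt2 window held 2 E-boxes and 2 Sp1 boxes, and that of Mphosph8 held 2 CCAAT boxes and 2 Sp1 boxes. Of 27018 promoters searched the same way, 6.04% held the E-box, 34.5% the CCAAT box, 33.0% the Sp1 box and 13.0% the TATA box. The number of CpG dinucleotides was 18 for Ehmt2 and 19 for Mphosph8, and it ran from 11 (Suv39h1) to 29 (Cbx3) over the 10 members, against a median of 6 over all promoters. The windows of Cbx1 and Cbx3 lie wholly inside the RefSeq gene intervals, which begin further upstream. No member's window held TATAAA. These counts describe the letters only.

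Early 2-cell embryos were compared with 1-cell embryos to describe the set across the first cleavage. Setdb1 and Ehmt1 were at least 2-fold lower, with differences of -1.21 and -1.002, and no member was at least 2-fold higher. Mphosph8 (-0.81) and Cbx5 (-0.76) came next, followed by Cbx1 (-0.44), Suv39h2 (-0.35) and Setdb2 (-0.15). Cbx3 (0.33), Ehmt2 (0.27) and Suv39h1 (0.27) lay above 0. Over 10117 genes past the filter, 7.12% were 2-fold or more below the 1-cell value and 3.72% as far above it. Ehmt2 did not pass that filter, so the count is 2 of 9 members past it. The median difference was -0.40 over the 10 members and -0.08 over genes past the filter. Ehmt1 lay at the threshold and was at -0.95 after median-ratio scaling, -0.78 after quantile normalization and -0.69 with a pseudocount of 5. Setdb1 was at -0.97 after quantile normalization.

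Late 2-cell embryos were compared with early 2-cell embryos, the interval of the major activation of the mouse genome. Ehmt2 (3.18), Cbx3 (1.40), Ehmt1 (1.05) and Setdb2 (1.001) were at least 2-fold higher, and Mphosph8 (-2.12), Cbx1 (-1.57) and Suv39h2 (-1.13) at least 2-fold lower. Setdb1 was lower by -0.85, and Suv39h1 (0.62) and Cbx5 (0.43) lay above 0. Over 12794 genes past the filter, 47.9% lay 2-fold or more above the early value and 10.9% as far below it, against 4 and 3 of the 10 members. The median difference was 0.52 over the members and 0.92 over genes past the filter. Because the median of these genes lay far from 0, directions here depend on scaling. After median-ratio scaling the median of these genes was 0.06 and after quantile normalization -0.14, and under both of these Mphosph8, Cbx1, Suv39h2 and Setdb1 were at least 2-fold lower and Ehmt2 at least 2-fold higher. Cbx3 stayed above 0, at 0.43 and 0.55. Suv39h1 and Cbx5 turned below 0 under both, and Ehmt1 and Setdb2 did so after quantile normalization, at -0.05 and -0.11, and were at 0.16 and 0.12 after median-ratio scaling.

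**Figure D3:**
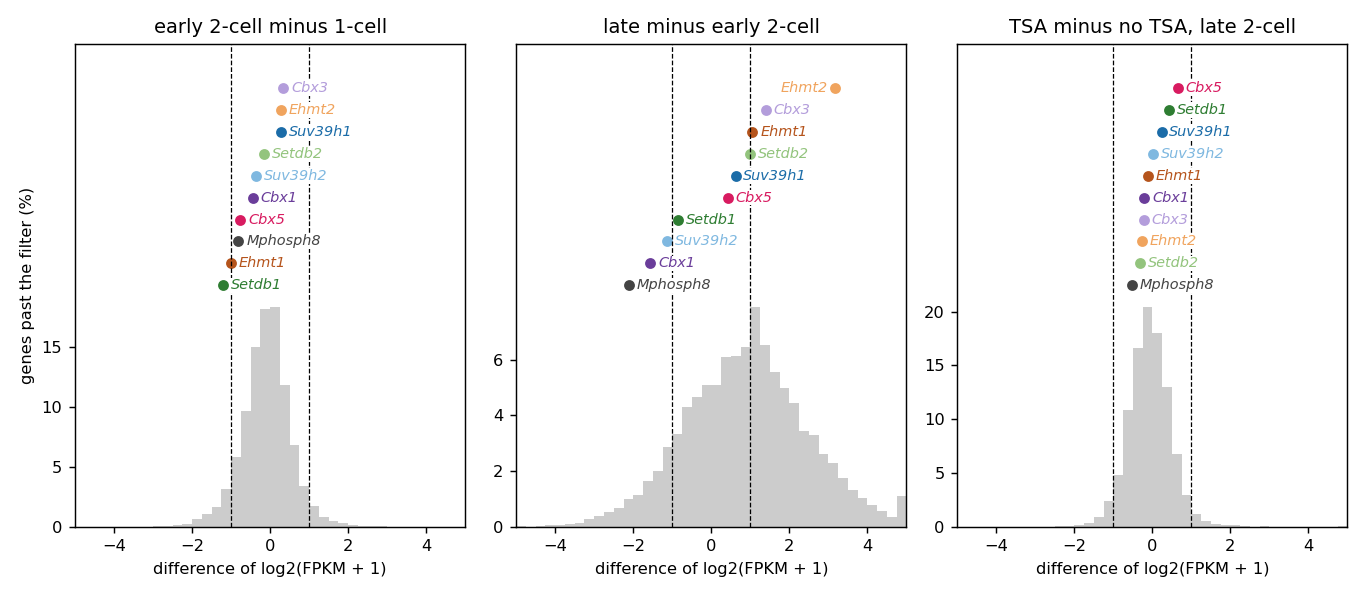
Differences of log2(FPKM + 1) on the x axis, with the share of all genes past the filter as grey bars (y axis, percent; differences beyond 5 are drawn in the end bars) and the 10 members as labelled points above them, whose height only separates the labels. Dashed lines mark 2-fold; 4 members lie at or right of the upper line and 3 left of the lower one between the 2-cell stages, and none lies outside the lines with TSA.

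The summed FPKM of the 4 readers was 587 in 1-cell, 365 in early 2-cell and 140 in late 2-cell embryos. The sum of the 6 methyltransferases was 218, 136 and 98.6 FPKM. Readers over methyltransferases was therefore 2.70, 2.69 and 1.42, and 1.17 with TSA. The direction of this ratio rests on Mphosph8: without it, the 3 HP1 genes over the methyltransferases was 0.78, 0.94 and 0.87, and 0.81 with TSA.

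TSA-treated late 2-cell embryos were compared with untreated late 2-cell embryos. The question was whether the writers and readers of the opposing mark differ in embryos given the deacetylase inhibitor. None of the 10 members was 2-fold apart in either direction. Over 12756 genes, 2.51% lay 2-fold or more above and 4.08% as far below the untreated value, so a count of 0 of 10 is close to that background. Differences ran from -0.52 (Mphosph8) to 0.66 (Cbx5), with 4 members above 0 and 6 below it. The median was -0.16 over the members and -0.08 over genes past the filter.

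Cbx5, the HP1α gene, had the largest difference. Its level was 20.7 FPKM with TSA against 12.8 FPKM without, 1.62 times as high, and it lay above 65.7% of genes with at least 1 FPKM with TSA and above 55.4% without. The other HP1 genes lay the other way, with Cbx1 at 29.8 FPKM with TSA against 34.6 FPKM without and Cbx3 at 32.7 against 38.4 FPKM. The share of Cbx5 in the HP1 transcripts was 24.8% with TSA and 14.9% without, while the ratio of Cbx1 to Cbx3 was 0.91 with TSA and 0.90 without. As deposited, the Cbx5 value with TSA was above that of each untreated stage, the nearest being 16.3 FPKM in 1-cell embryos. This order depends on scaling. Division by the median-ratio factors, 0.78 for the 1-cell and 1.33 for the TSA column, puts the 1-cell value above the TSA value. Cbx5 (chromosome 15, 103191546 to 103239904, minus strand) starts 39 bp from Hnrnpa1, a splicing factor gene on the other strand, which was at 50.0 FPKM with TSA against 30.9 FPKM without. Cbx3 has a similar neighbour in Hnrnpa2b1, with starts 106 bp apart, and that gene was at 47.6 FPKM with TSA against 41.0 FPKM without.

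Among the methyltransferases, Setdb1 was at 29.1 FPKM with TSA against 21.3 FPKM without, a difference of 0.43. Setdb2 was at 8.35 against 10.7 FPKM, a difference of -0.33. Their ratio, Setdb1 over Setdb2, was 3.48 with TSA and 1.99 without, 1.75 times as high. Suv39h1 was at 9.28 FPKM with TSA against 7.74 FPKM without (0.23), and Suv39h2 at 36.9 against 36.7 FPKM (0.01). Ehmt2 was at 8.29 FPKM with TSA against 10.2 FPKM without (-0.27), and Ehmt1 at 10.8 against 11.9 FPKM (-0.12). The share of Ehmt2 in that pair was 43.4% with TSA and 46.3% without. Mphosph8 was at 37.3 FPKM with TSA against 53.8 FPKM without, a ratio of 0.69, and lay below its value in every untreated stage. The summed oocyte markers were at 707 FPKM with TSA against 1020 FPKM without, also 0.69 times as high, but without Oosp1 the sums were 166 FPKM with TSA and 194 FPKM without, 0.85 times as high; the part of this in the Mphosph8 value was not tested. The signs of Cbx5, Setdb1, Suv39h1 and Suv39h2 (above 0) and of Mphosph8, Setdb2, Ehmt2, Cbx1 and Cbx3 (below 0) held after median-ratio scaling and quantile normalization, and that of Ehmt1 turned to 0.02 after median-ratio scaling. Some of these values were nearly level. Suv39h2 was at 0.03 after quantile normalization, and Cbx1 and Cbx3 were at -0.06 and -0.08 after median-ratio scaling.

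**Figure D4:**
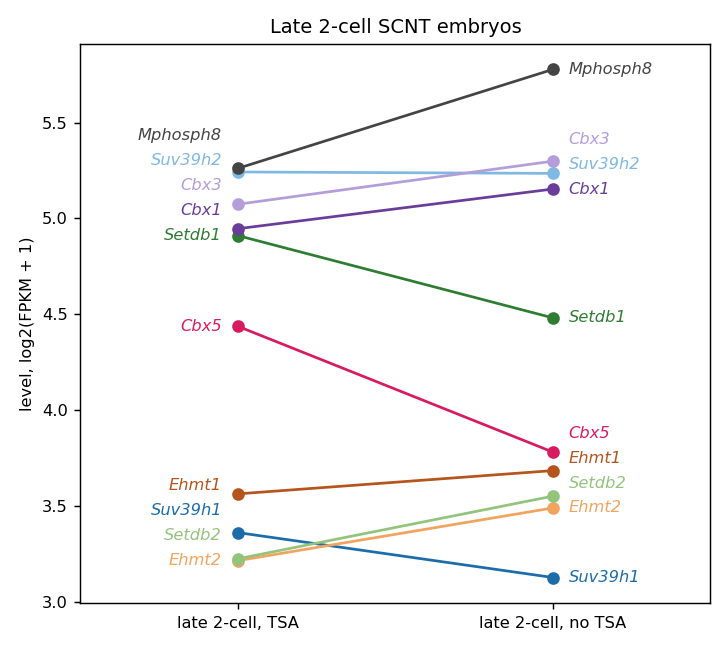
Levels of the 10 genes in late 2-cell SCNT embryos as log2(FPKM + 1), with TSA on the left and without on the right; each line joins the authors' single values for 1 gene. The line of Cbx5 is the steepest, at 20.7 FPKM with TSA against 12.8 FPKM without.

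Partners of these proteins, 3 PRDM methyltransferases and 11 H3K9 demethylases, which remove the mark, were described from 6 lists with 38 genes. All 38 were in the table, 3 under the older symbols Fam208a, Suv420h1 and Suv420h2. Between the 2-cell stages, 32 of the 38 passed the filter. Of these, 16 lay 2-fold or more higher in late than in early 2-cell embryos and 3 as far below, beside 47.9% and 10.9% of genes past the filter. The values of the 38 genes were not rescaled. The median difference of genes past the filter was 0.92 here, so these counts and those by list may depend on scaling. Among the partners of SETDB1 and KAP1, 4 of 7 were higher and 1 lower. Trim28, which encodes KAP1, was at 42.8 FPKM in late and 6.02 FPKM in early 2-cell embryos, whereas Setdb1 was at 21.3 and 39.3 FPKM. Zfp809, a zinc finger gene that directs KAP1 to retroviral sequence, was at 22.3 against 4.04 FPKM and Morc2a at 15.5 against 3.16 FPKM. Zfp57, which directs KAP1 to imprinted regions, was lower, at 23.9 against 121 FPKM. It was at 332 FPKM in 1-cell embryos.

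Both other HUSH genes were higher at the late 2-cell stage, opposite to Mphosph8. In this interval 47.9% of genes past the filter were at least 2-fold higher, and the median difference of genes past the filter was 0.92. The values of these 2 genes were not rescaled. Fam208a, which encodes the TASOR subunit, was at 13.1 FPKM in late against 2.94 FPKM in early 2-cell embryos, and Pphln1, the periphilin gene, at 274 against 93.4 FPKM. Of 5 partners of G9a and GLP, 3 passed the filter and 1 was at least 2-fold higher, the zinc finger gene Zfp644 at 44.4 against 10.8 FPKM. Wiz, which encodes another zinc finger partner, was under 1 FPKM in each column.

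Of 10 pericentric and HP1 partners, 9 passed the filter. Among these, 5 were at least 2-fold higher and 1 as far lower, beside 47.9% and 10.9% of genes past the filter. Suv420h1, an H4K20 methyltransferase gene, was at 15.7 against 1.45 FPKM, Chaf1b, a histone chaperone subunit gene, at 36.6 against 5.54 FPKM, and Lbr, the lamin B receptor gene, at 81.1 against 15.1 FPKM. Uhrf1, which links H3K9 methylation to DNA methylation, was lower, at 8.11 against 24.0 FPKM. Of 11 demethylases, 9 passed the filter. Among these, 4 were at least 2-fold higher and 1 as far lower, beside those same shares of genes past the filter. Kdm4c was at 27.1 against 1.10 FPKM and Kdm3a at 18.5 against 1.75 FPKM, while Kdm1a was at 8.80 against 26.8 FPKM. Jmjd1c was at 6.66 against 2.03 FPKM. None of the 3 PRDM methyltransferases was 2-fold apart here, and Prdm2 had the largest difference, at 23.5 against 13.8 FPKM.

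Across the first cleavage, 31 of the 38 passed the filter, and 1 was at least 2-fold higher in early 2-cell than in 1-cell embryos (Zfp809, 4.04 against 1.20 FPKM) and 2 were at least 2-fold lower (Zfp57, 121 against 332 FPKM, and Prdm16, 0.31 against 3.78 FPKM), beside 3.72% and 7.12% of genes past the filter. With TSA, 32 passed it and 1 was 2-fold apart, beside 2.51% of genes higher and 4.08% lower. This was Adnp, which encodes an HP1-binding protein, at 2.21 FPKM with TSA against 0.035 FPKM without. It passed the filter through the TSA column alone, and its difference depends on the pseudocount. Lbr was at 126 FPKM with TSA against 81.1 FPKM without and Chaf1a at 36.5 against 23.8 FPKM, with differences of 0.63 and 0.59. Larger in size were those of Suv420h2 (-0.80), at 0.61 against 1.80 FPKM, and Mecom (-0.83), a PRDM gene at 0.89 against 2.36 FPKM. Phf8, a demethylase gene, was at 55.2 against 104 FPKM, a difference of -0.90.

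**Figure D5:**
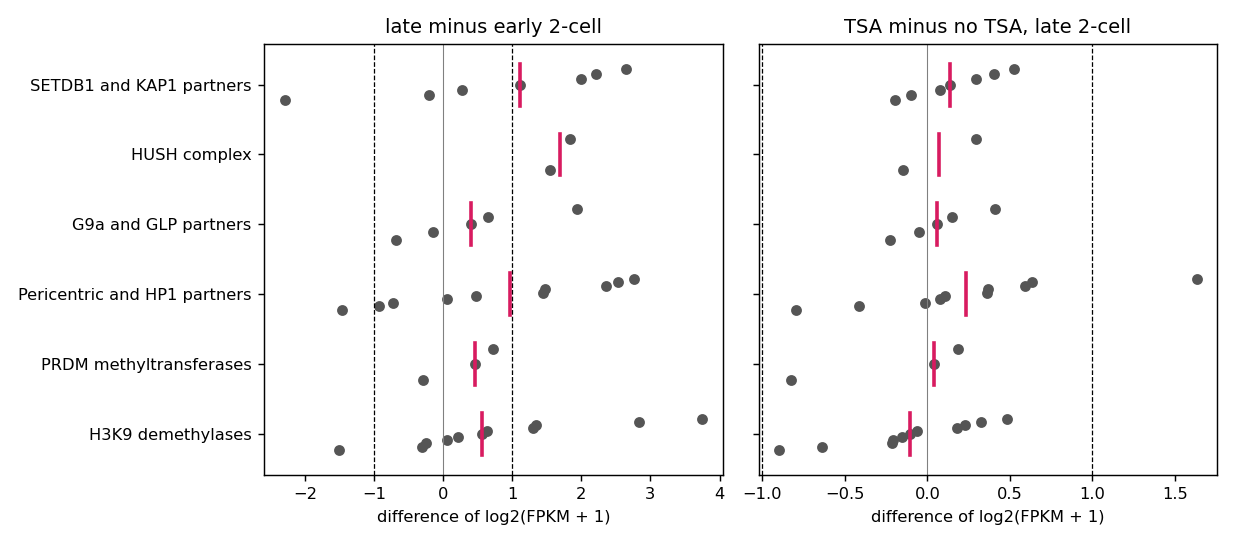
Differences of log2(FPKM + 1) for the 38 partner genes on the x axis, 1 point per gene in its list on the y axis, with the list median as a red bar and dashed lines at 2-fold. Between the 2-cell stages 16 points lie right of the upper line, and with TSA 1 point, Adnp, does.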

How the data were processed

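The labels describe 59 samples, of which 24 are RNA libraries and 35 chromatin libraries and inputs, which were not analysed here. Per the file headers, the authors deposited log2(FPKM + 1). The submitters' processing notes name mm10, HISAT2 2.1.0 and StringTie 1.3.4 among other tools, without roles. Of 6 value columns, 4 were matched to groups; the 1-cell column is named by 13 h, so its match is inferred. The other 2 columns have no counterpart among the labelled RNA libraries and stayed out. How libraries were combined is not given in the sources used here.

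Values were turned back to FPKM with pandas 2.3.3. Limma had been planned for replicate columns and could not be run on 1 value per group, so differences are descriptions. A gene entered a comparison if either of its columns reached 1 FPKM. The 10 members and the lists were chosen with earlier results of these data known. All members are named, as are, by rule, neighbours and the 3 closest profiles to the 3 members of widest range. Of the lists, genes past 2-fold or with large differences are named, up to 4 a list in a comparison. Not every such gene is named. Proteins of the set are not compared here. Alternatives were pseudocounts of 0.1 and 5, median-ratio scaling, quantile normalization, no filter, a filter of 5 FPKM and a 1.5-fold threshold.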

Additional observations from a re-analysis of the deposited data

How the results depend on the processing

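No paired analysis was possible because the table holds 1 value per group, and for the same reason no replicate could be left out; depth is unknown. Of 160 values of single members under the pseudocounts and scalings, 141 kept their side of the 2-fold threshold. Of the differences past 2-fold as deposited, those of Ehmt1 (-0.052) and Setdb2 (-0.11) between the 2-cell stages reversed after quantile normalization. Smaller differences that changed sign are among the 141. After median-ratio scaling and quantile normalization, Suv39h1 (0.62) was at -0.24 and -0.50 and Cbx5 (0.43) at -0.49 and -0.61 between the 2-cell stages. Between late 2-cell and 1-cell embryos, Ehmt1 (0.05) was at -0.79 and -0.83. At the first cleavage, the 2 lower members numbered 1 with a pseudocount of 5 or median-ratio scaling, 0 after quantile normalization and 4 at 1.5-fold, and 1 member (Ehmt2, which is under 1 FPKM in both columns) was higher with a pseudocount of 0.1. Between the 2-cell stages, the 4 higher members numbered 2 with a pseudocount of 5 and 1 after either scaling, and the median of 0.52 reversed to -0.37 after median-ratio scaling and -0.56 after quantile normalization, where the median of all genes also moved, by construction. Between late 2-cell and 1-cell embryos, the 2 higher members numbered 1 after median-ratio scaling and 4 at 1.5-fold, and the median of -0.14 moved to -0.99 after median-ratio scaling and -0.98 after quantile normalization. With TSA, 1 member (Cbx5) was higher at 1.5-fold, and higher genes made up 38.1% of all genes past 2-fold as deposited, 61.2% after median-ratio scaling and 52.7% after quantile normalization. Between the 2-cell stages these shares were 81.4%, 54.1% and 49.02%, at the first cleavage 34.3%, 44.4% and 47.7%, and between late 2-cell and 1-cell embryos 76.8%, 52.5% and 47.4%. The shares within groups of related genes are the same under any scaling factor per column. Filters changed no count or median of the members by more than 1.5 times or 0.25.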
